A study of Homo sapiens with 18 samples.

Results

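The endothelin family was followed across 18 arrays of A549 cells exposed to silica nanoparticles (NPs). It comprised 6 genes, namely the ligand genes EDN1, EDN2 and EDN3, the receptor genes EDNRA and EDNRB, and ECE1, which encodes a converting enzyme. Members were all non-control probes that the scanner files name after these genes, which gave 8 of the 41000 probes and 6 of the 30484 gene names on the array. The family was chosen by the fall of EDN2 after SM30 NPs in earlier results of these data. The values of members after SM30 are therefore given as a description with no test, and no call of a member is given there. That fall was taken against the SM30 controls, so the EDN2 level of these controls was part of the choice too.

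Gene expression was measured on one-colour Agilent arrays in A549, an established line of human lung adenocarcinoma cells of epithelial type. The cells were exposed for 2 h without serum to Ludox SM30 NPs, of 9 nm in diameter, or to Ludox AS30 NPs, of 18 nm, and were then left to recover in medium with serum. The 6 groups of 3 arrays were SM30 with 3 h of recovery, AS30 with 3 h, AS30 with 22 h, and a separate control group for each of these, which went through the same steps without NPs. Both NPs were applied at the same mass concentration per the study's methods. The series holds no arrays of SM30 with 22 h of recovery. All groups came from this 1 cell line, and the study's methods call the replicates, lettered A to C, biological, without saying whether the cultures were grown on separate occasions.

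Endothelins are short peptides best known for constricting blood vessels, and airway epithelium is also a known source of them. They are made as long precursors, which furin-like convertases trim to an inactive intermediate that ECE1, a membrane metalloprotease, then cuts to the active peptide. EDNRA and EDNRB are G protein-coupled receptors. EDNRA prefers the EDN1 and EDN2 peptides over that of EDN3, while EDNRB binds every endothelin about equally and also takes endothelin out of the circulation.

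The level of EDN2 varied most among the measured members, so the sequence before its start is shown first. Upstream windows of 250 bases were taken from RefSeq on build GRCh38.p14 for 5 of the 6 genes, in 11 windows because EDN1, ECE1 and EDNRB have several listed starts. EDN3 had no entry. Capitals mark TATAA or GATAA on either strand.
EDN2, chr1:41484684-41484933, minus strand: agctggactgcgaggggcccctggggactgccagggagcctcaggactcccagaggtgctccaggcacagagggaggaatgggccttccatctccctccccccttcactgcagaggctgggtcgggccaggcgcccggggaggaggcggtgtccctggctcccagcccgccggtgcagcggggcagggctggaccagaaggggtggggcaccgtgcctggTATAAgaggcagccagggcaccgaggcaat
EDN1, 30 bases around TATAA before the most downstream of its 3 starts, chr6:12290318-12290347, plus strand: ataggggttcaaTATAAaaagccggcagag
EDN1, 30 bases around GATAA of the opposite strand before the same start, chr6:12290213-12290242, plus strand: tcgggcctggccTTATCtccggctgcacgt

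TATAA lay on the sense strand in the EDN2 window, beginning 30 bases before the start, and in 1 of the 3 EDN1 windows, the one shown, beginning 31 bases before it. Of the other EDN1 windows, 1 held TATAA on the opposite strand, 199 bases before its start, and 1 held none. Among the 35116 upstream windows, 3.57% hold TATAA on the sense strand between 25 and 35 bases before a start. Anywhere in the window and on either strand, 18.9% hold it. The windows of ECE1, EDNRA and EDNRB held no TATAA. Both strands were also searched for GATAA, the core letters of GATA factor sites, for TGANTCA, the letters of AP-1 sites, and for ACGTG, the core of hypoxia-response sites. GATAA was found in the EDN1 window shown and in 1 of the 2 EDNRB windows and not in that of EDN2, against 20.4% of all windows. TGANTCA was found in none of the 11 member windows, against 6.57% of all windows. ACGTG was found in the EDN1 window shown, in 1 other EDN1 window and in both EDNRB windows and not in that of EDN2, against 18.5% of all windows. In the windows shown no matches overlapped. G and C made up 70.8% of the EDN2 window, 49.2% of this EDN1 window and 58% of the median window. A match in letters is a description and not a site of binding.

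Of the 8 probes, 3 were measured well above background on all 18 arrays, and these were the single probes of EDN1, EDN2 and ECE1. The EDN2 probe lies at chr1:41717043-41717102, the ECE1 probe at chr1:21432653-21432712 and the EDN1 probe at chr6:12404658-12404717, on build hg18 as the files give it. The other 5 probes, for EDN3, EDNRA and EDNRB, were near background and had over 33% of their values missing, so they entered no test. Levels below are log2 of the processed signal after quantile normalization. They compare 1 probe between arrays and not 1 gene with another, and fewer cells with the transcript cannot be told apart from less transcript per cell. Where groups are said not to overlap, or pairs to share a sign, the share of all probes that do likewise was not computed. Such statements describe the arrays only.

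The cells carried the markers of their labelled type. All 7 epithelial and A549 markers on the list, among them EPCAM and the keratins KRT8 and KRT18, were well above background on 18 of 18 arrays. Of the 6 endothelial markers PECAM1 and TEK were so on none, CDH5 on 1, KDR on 2, VWF on 11 and ERG on 17. Of the other lists, COL1A1 of 4 fibroblast markers and CD14 and CD3E of 3 leukocyte markers were well above background on every array, and COL3A1 and PDGFRB on none. The summed log2 signal of the endothelial list lay between 7.43 and 9.02 in the AS30 controls at 3 h and between 8.06 and 8.16 after AS30 at 3 h. The leukocyte list lay between 7.95 and 8.81 in these controls and between 8.86 and 8.93 after AS30, which did not overlap. In the SM30 set the fibroblast list lay between 7.14 and 7.53 in the controls and between 7.66 and 7.89 after SM30, and the leukocyte list between 8.45 and 8.55 and between 8.04 and 8.42, so these did not overlap either. At 22 h all 3 of these lists overlapped between treated and control arrays. The part of these lists in the results was not tested. The share of spots well above background was 62.5% to 67.1% after AS30 at 3 h and 52.4% to 61.9% in its controls, 56.9% to 67.0% after AS30 at 22 h and 51.9% to 58.4% in its controls, and 69.0% to 72.4% after SM30 and 65.5% to 69.9% in its controls. The part of this difference in the results was not tested.

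EDN2 was lower after both NPs at 3 h. EDN2 encodes the endothelin that is best known from intestine and ovary. In the SM30 set its log2 level was 10.69, 10.83 and 11.35 in controls A, B and C and 7.84, 8.63 and 8.11 after SM30. The arrays of these groups did not overlap, with a gap of 2.06 between the lowest control and the highest treated array. In the AS30 set at 3 h the level was 10.62, 9.90 and 9.55 in the controls and 8.60, 7.38 and 8.03 after AS30. Again the groups did not overlap, although the gap was smaller, at 0.95. At 22 h the level was 9.80, 10.85 and 8.97 in the controls and 8.91, 9.76 and 8.33 after AS30. Here the groups overlapped, and the spread among the 3 controls (SD 0.94) was wider than the difference between the group means.

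**Figure D1:**
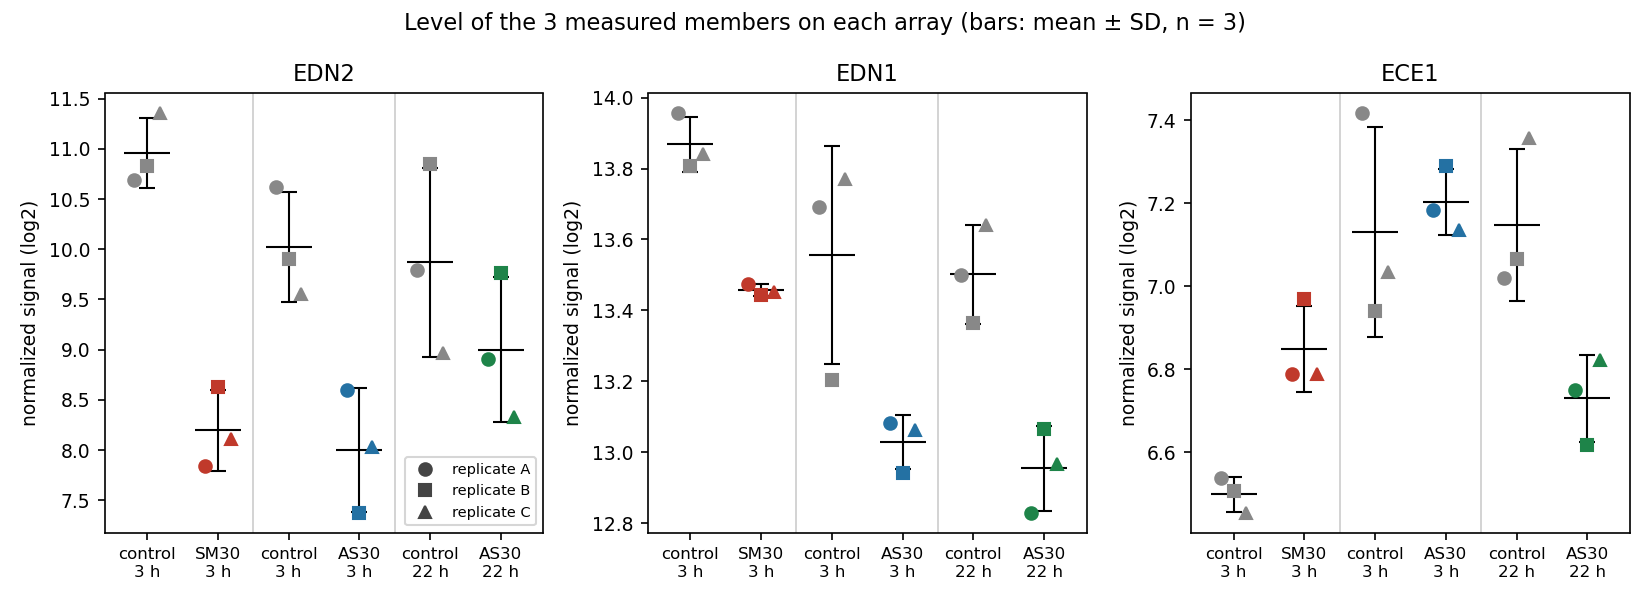
Normalized log2 signal (vertical axis, a separate range for each gene) of EDN2, EDN1 and ECE1 on each of the 18 arrays, by group and replicate letter, with bars at the mean ± SD of 3 arrays. EDN2 lies at 7.84 to 8.63 after SM30 against 10.69 to 11.35 in its controls, and ECE1 is lowest in the SM30 controls.

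After AS30 at 3 h, EDN2 fell by 2.02 on the log2 scale (SE 0.23, n = 3 pairs), to 24.6% of control, which is 4.07-fold lower. The SE, interval and p of each ratio rest on a spread shared by all 9 ratios, those after SM30 included. The 95% interval of the log2 difference ran from -2.55 to -1.49, and limma gave an adjusted p of 0.0091 over all probes. The 3 pairs gave log2 ratios of -2.02, -2.53 and -1.52. EDN2 was the 1 of 3 tested members past the threshold of 0.05 in this comparison, where 2.52% of the 28596 tested probes were called, 1.5% higher and 1.01% lower. Without pair B the difference was -1.77 and the adjusted p was 0.0532, so this pair decides which side of the threshold EDN2 takes. The AS30 arrays at 3 h lay on another slide than their controls, so slide and treatment cannot be told apart in the direct comparison. With slide as a fixed block, which links the slides through the 22 h controls, the difference was -3.07 with an adjusted p of 0.178, and against the 1 control array on the treated slide, a 22 h control, it was -2.84. That array, control B, had the highest EDN2 level of the 3 controls at 22 h (10.85), and the fixed block depends on it too. With normexp background correction the difference was -1.14, with an adjusted p of 0.0127.

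After SM30 the mean log2 ratio of EDN2 was -2.76 (SE 0.23, n = 3 pairs), or 14.7% of control, with -2.84, -2.20 and -3.24 in the 3 pairs. These are the values that chose the family. With normexp background correction the value was -1.82. On the slide that held SM30 array A together with all 3 SM30 controls, the treated array differed from the mean of the controls by -3.11. SM30 arrays B and C lay on a slide without controls, so for their pairs slide and treatment cannot be told apart. With slide as a fixed block the SM30 difference rests on array A alone and is no second result. Of the 28664 probes tested after SM30 7.49% were called, 4.35% higher and 3.13% lower. No call of a member is given here, because these values chose the family.

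After AS30 at 22 h the mean log2 ratio of EDN2 was -0.87 (SE 0.23), or 54.7% of control, with -0.89, -1.08 and -0.64 in the 3 pairs. All pairs were lower, but limma's adjusted p was 0.0775. The 3 treated arrays shared a slide with control C alone, and on that slide their mean differed from the control by 0.03. Control C had the lowest EDN2 level of the 3 controls, at 8.97. With slide as a fixed block the difference rests on this same comparison and is no second result (0.03, adjusted p = 0.995 from limma). The response of EDN2 at 22 h minus that at 3 h was 1.15 on the log2 scale (SE 0.33, interval 0.40 to 1.90), with an unadjusted p of 0.00728 and an adjusted p of 0.173 from limma. With slide as a fixed block this difference was 3.10, a value that turns on single 22 h control arrays, and with normexp correction 0.57. It uses the same AS30 ratios as the comparisons at each time.

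EDN1 encodes the endothelin made by vascular endothelium and by many epithelia, and its probe was printed 10 times on each array. Between 8 and 10 of these spots entered the mean, and their SD within an array was 0.018 to 0.063 on the log2 scale, with a median of 0.041. In the SM30 set the log2 level of EDN1 was 13.96, 13.81 and 13.84 in the controls and 13.48, 13.44 and 13.45 after SM30. In the AS30 set at 3 h it was 13.69, 13.20 and 13.77 in the controls and 13.08, 12.94 and 13.06 after AS30. At 22 h it was 13.50, 13.36 and 13.64 in the controls and 12.83, 13.07 and 12.97 after AS30. In none of the 3 sets did treated and control arrays overlap, and the gaps were 0.33, 0.12 and 0.30. This is a description, because the share of all probes without overlap was not computed.

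The mean log2 ratio of EDN1 was -0.53 after AS30 at 3 h (SE 0.13, interval -0.82 to -0.23), or 69.4% of control, and -0.55 at 22 h (SE 0.13, interval -0.84 to -0.25), or 68.4% of control. All 6 of these pairs were lower. Limma's adjusted p was 0.0695 at 3 h and 0.0563 at 22 h, so neither passed the threshold. Both lie close to it, and EDN1 passed at 22 h under 5 and at 3 h under 4 of the 10 other settings that keep every array, as well as at 22 h without pair B, with the adjusted p from 0.0270 to 0.182 at 22 h and from 0.0121 to 0.879 at 3 h over those 10. The response at 22 h minus that at 3 h was -0.02 (SE 0.18, interval -0.44 to 0.40, adjusted p = 0.973). On the slide that held the 3 AS30 arrays at 22 h and 1 control of that time, their difference was -0.69. The 3 AS30 arrays at 3 h differed by -0.33 from the 1 control on their slide, a 22 h control, and with slide as a fixed block the difference at 3 h was -0.39 (adjusted p = 0.879 from limma). After SM30 the mean log2 ratio was -0.41 (SE 0.13), or 75.2% of control, with -0.48, -0.37 and -0.39 in the pairs.

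ECE1 was the member whose ratios took both signs. Its log2 level was 6.54, 6.51 and 6.45 in the SM30 controls and 6.79, 6.97 and 6.79 after SM30, with no overlap. In the AS30 set at 3 h it was 7.42, 6.94 and 7.04 in the controls and 7.18, 7.29 and 7.14 after AS30, and these groups overlapped. At 22 h it was 7.02, 7.07 and 7.36 in the controls and 6.75, 6.62 and 6.82 after AS30, with no overlap. The mean log2 ratio was 0.07 after AS30 at 3 h (SE 0.13, interval -0.23 to 0.37, adjusted p = 0.765), a value that turned to -0.05 with scaling to the 75th percentile and to -0.07 without pair B. At 22 h the mean was -0.42 (SE 0.13, interval -0.72 to -0.12), or 74.9% of control, with -0.27, -0.45 and -0.53 in the pairs and an adjusted p of 0.112 from limma. After SM30 the mean was 0.35 (SE 0.13), with 0.25, 0.46 and 0.33 in the pairs. With normexp background correction the SM30 value was 0.15 and the AS30 value at 22 h was -0.13. The response to AS30 at 22 h minus that at 3 h was -0.49 (SE 0.19, interval -0.92 to -0.06, adjusted p = 0.247).

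At 22 h 0 of the 3 tested members passed the threshold with limma, and 3 of 3 had an unadjusted p under 0.05, as did 22.9% of all probes tested. In this comparison 3.58% of the 28155 tested probes were called, 2.54% higher and 1.04% lower. For the difference between the AS30 responses at 22 h and 3 h, 0 of 3 members passed, beside 0.0285% of 28086 probes called, and 2 of 3 had an unadjusted p under 0.05, beside 16.9% of these probes. The SM30 response minus the AS30 response at 3 h was -0.74 for EDN2, 0.11 for EDN1 and 0.28 for ECE1 on the log2 scale. With slide as a fixed block the value of EDN2 was -0.04, and with a pair left out it ran from -1.02 to -0.49. These values use the SM30 ratios and are a description with no test. Of all 28595 probes 0.014% were called in this comparison.

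**Figure D2:**
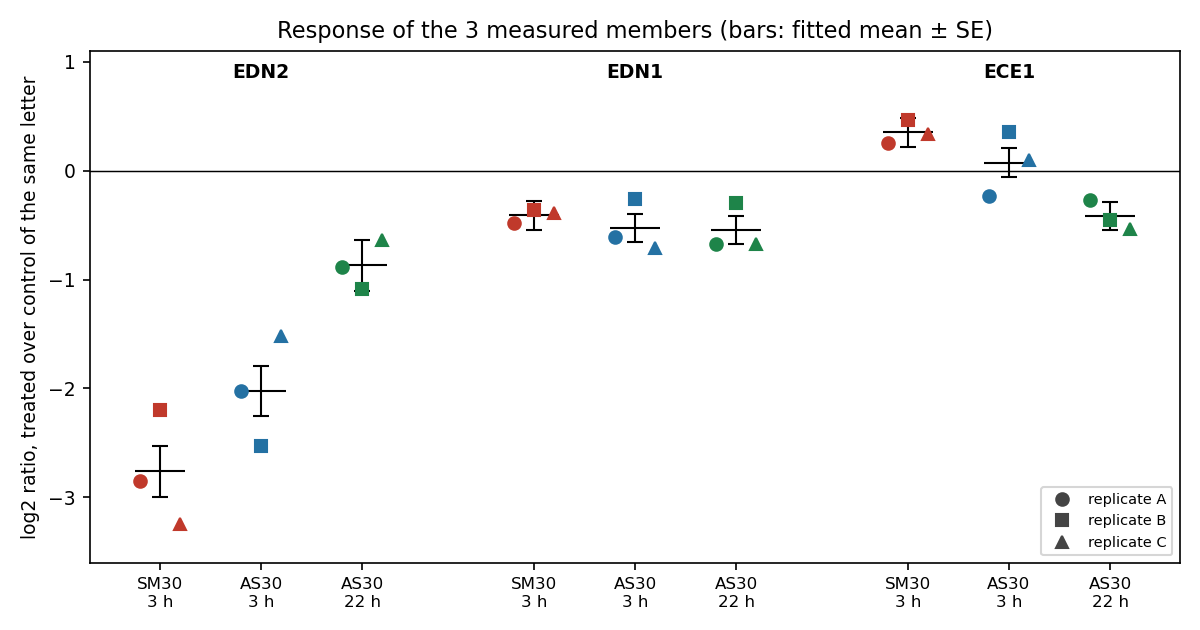
Log2 ratio of each treated array over the control array of the same letter (vertical axis) for EDN2, EDN1 and ECE1 after SM30 at 3 h, AS30 at 3 h and AS30 at 22 h, with bars at the fitted mean ± SE from limma. EDN2 has means of -2.76, -2.02 and -0.87, EDN1 lies below 0 in all 9 pairs, and ECE1 lies above 0 in the SM30 pairs and below 0 in the AS30 pairs at 22 h. The share of all probes with such signs was not computed.

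The levels of untreated cells were compared between the control groups. From 3 h to 22 h the AS30 controls differed by -0.15 for EDN2 (SE 0.47, interval -1.17 to 0.86, adjusted p = 0.922), by -0.05 for EDN1 (SE 0.14, interval -0.34 to 0.24, adjusted p = 0.904) and by 0.02 for ECE1 (SE 0.13, interval -0.26 to 0.30, adjusted p = 0.973). With limma 0 of 3 members passed the threshold and 0 of 3 had an unadjusted p under 0.05, beside 1.3% of 28179 probes called. These values are near 0, and each turned sign under at least 1 other setting or with 1 array left out. The controls of the SM30 set and of the AS30 set at 3 h differed more. Per the study's methods, controls went through the steps of the treated cells without NPs. ECE1 was lower by 0.63 on the log2 scale in the SM30 controls (SE 0.13, interval -0.91 to -0.35, adjusted p = 0.00371), and EDN1 was higher by 0.31 (SE 0.14, interval 0.02 to 0.60, adjusted p = 0.101). EDN2 was higher by 0.93 (SE 0.47). The SM30 controls are part of the ratios that chose the family, so this EDN2 value is a description and nothing is read from it. Thus 1 of 3 members passed, beside 26.8% of 28620 probes called between these 2 control groups. No slide held arrays of both sets, so the set of cultures and the slide cannot be told apart there. With normexp background correction the ECE1 difference was -0.23 (adjusted p = 0.0187). Without control C of the AS30 set EDN1 also passed, with 0.42 and an adjusted p of 0.0469.

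In order of group means, the log2 level of EDN2 was 10.96 ± 0.35 (SD, n = 3) in the SM30 controls, 10.02 ± 0.55 in the AS30 controls at 3 h, 9.87 ± 0.94 in those at 22 h, 9.00 ± 0.72 after AS30 at 22 h, 8.19 ± 0.40 after SM30 and 8.001 ± 0.61 after AS30 at 3 h. Only the highest of these was separate from its neighbour, and the others overlapped the group next to them. For EDN1 the order was SM30 controls (13.87 ± 0.08), AS30 controls at 3 h (13.55 ± 0.31) and 22 h (13.50 ± 0.14), SM30 (13.46 ± 0.02), AS30 at 3 h (13.03 ± 0.08) and AS30 at 22 h (12.95 ± 0.12). The neighbours that did not overlap were the first and second groups, and SM30 and AS30 at 3 h. For ECE1 the order was AS30 at 3 h (7.20 ± 0.08), AS30 controls at 22 h (7.15 ± 0.18) and 3 h (7.13 ± 0.25), SM30 (6.85 ± 0.10), AS30 at 22 h (6.73 ± 0.10) and SM30 controls (6.50 ± 0.04). There the final group alone was separate from its neighbour.

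**Figure D3:**
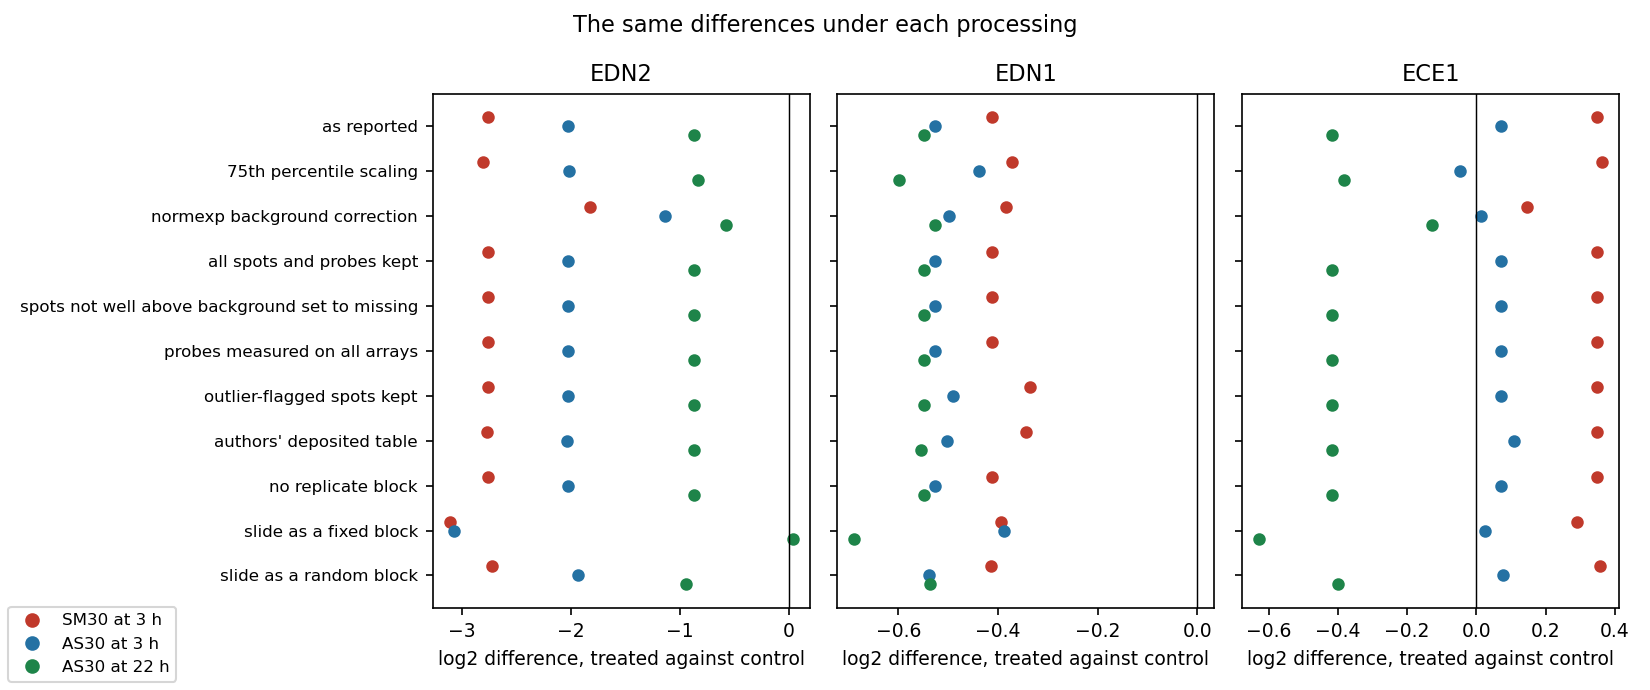
Log2 difference between treated and control cells (horizontal axis, a separate range for each gene) for EDN2, EDN1 and ECE1 as reported and under 10 other ways of processing or fitting, with a colour for each treatment. The EDN2 difference after AS30 at 3 h ranges from -3.07 with slide as a fixed block to -1.14 with normexp correction, and the EDN2 difference at 22 h is 0.03 with slide as a fixed block.

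EDN3 and the receptors gave little signal in these cells. EDN3, whose peptide is best known from the development of neural crest cells, was at 2.75 to 4.32 on the log2 scale and well above background on 0 of 18 arrays. On the 18 arrays the dimmest probe flagged well above background had a signal of 3.56 to 6.47. The pair of EDNRB probes lay at 2.61 to 4.22 and at 2.51 to 5.45, each flagged positive and significant on 1 array and well above background on none. These were different arrays, SM30 A for the first and AS30 at 22 h B for the second, where the 5.45 was measured. EDNRA, the receptor through which endothelin constricts smooth muscle, had 1 probe at 2.52 to 3.22 that was well above background on no array. The other EDNRA probe, at chr4:148684928-148684987 on build hg18, lay at 2.50 to 4.72 and was well above background on 3 arrays, namely SM30 controls A and B and AS30 at 22 h A.

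For that EDNRA probe the log2 level was 4.04 ± 0.37 (SD, n = 3) in the SM30 controls and 3.48 ± 0.07 after SM30, where no array held it well above background. No fold is given, because control C was not well above background either. At 22 h none is given because the control arrays and 2 of 3 treated arrays were not well above background. When all probes were kept, limma called 0 of the 5 EDN3 and receptor probes in each comparison of AS30 or of controls. The number with an unadjusted p under 0.05 was 1 of 5 for AS30 at 3 h, 3 of 5 at 22 h, 0 of 5 between the AS30 controls and 1 of 5 between the control sets, beside 18.7%, 19.7%, 11.9% and 32.1% of all 41000 probes. The share of these called was 0.668%, 1.24%, 0.571% and 17.9%.

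**Figure D4:**
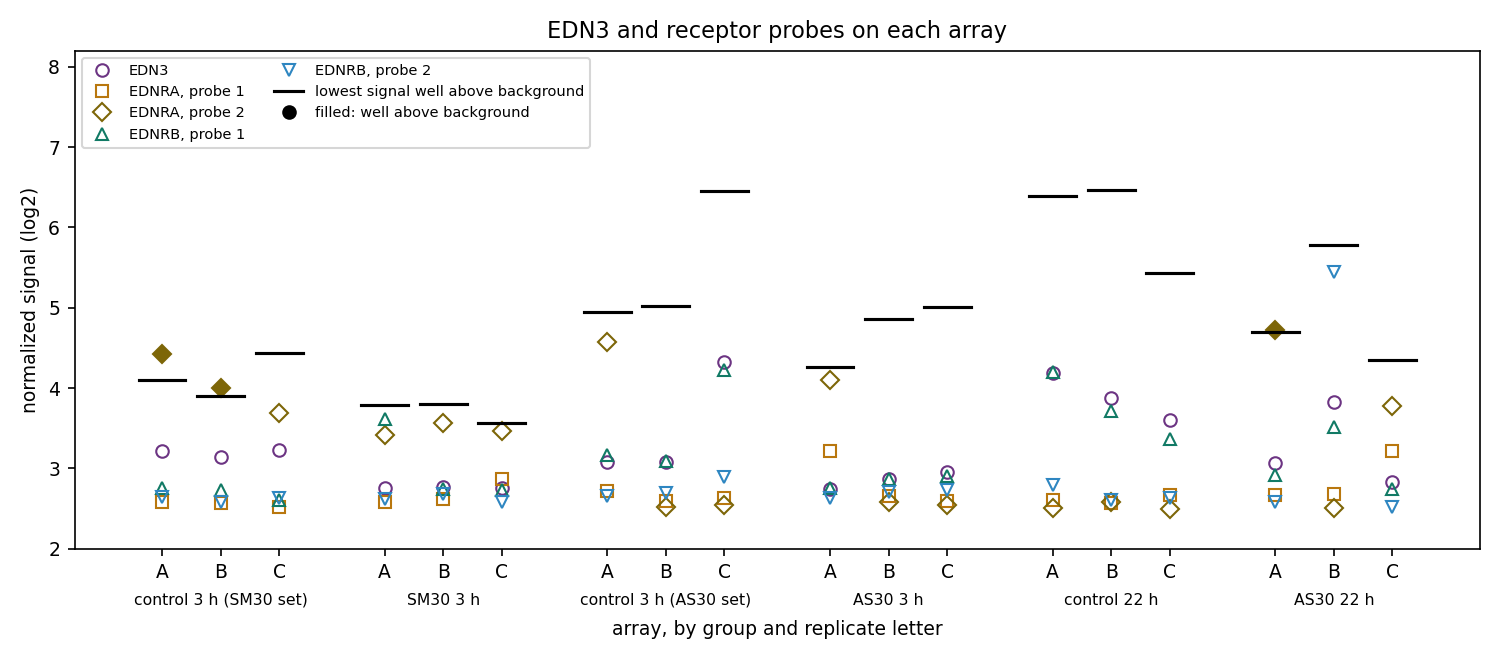
Normalized log2 signal (vertical axis) of the 5 EDN3, EDNRA and EDNRB probes on each of the 18 arrays, with a black line at the lowest signal well above background on that array and filled symbols where a probe was well above background. The filled symbols are on 3 arrays, all of the same EDNRA probe, and the remaining values lie between 2.50 and 5.45.

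The enzymes that trim and remove endothelin were taken as a list of 11 genes, with FURIN and PCSK7 among the convertases and the degrading peptidases MME and CTSA. Of these, 5 passed the filter on missing values. After SM30, AS30 at 3 h and AS30 at 22 h 0 of 5 were called, beside 7.49%, 2.52% and 3.58% of all tested probes. The median log2 ratio of the 5 was 0.05, 0.03 and 0.46, against -0.05, 0.01 and -0.0047 for all tested probes. At 22 h 3 of the 5, namely CTSA, FURIN and PCSK5, had a mean ratio above 0, while PCSK6 (-0.32) and PCSK7 (-0.08) lay below 0.

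Receptor signalling was taken as 27 genes of G proteins, phospholipase C, protein kinase C, inositol trisphosphate receptors, arrestins and regulators of G protein signalling. Of 25 tested, 1 rose and 2 fell after SM30, 0 rose and 1 fell after AS30 at 3 h, and 0 were called at 22 h, beside 7.49%, 2.52% and 3.58% of all tested probes called in either direction. PRKCE, a protein kinase C isoform, fell by 0.71 on the log2 scale after AS30 at 3 h (SE 0.12, adjusted p = 0.0327 from limma) and by 0.87 after SM30 (SE 0.12). RGS16, which shortens G protein signals, fell by 1.64 after SM30 (SE 0.29), and ITPR3, a calcium release channel, rose by 0.72 (SE 0.17). The median of the list was 0.03, 0.0036 and 0.01 in the comparisons of SM30, AS30 at 3 h and AS30 at 22 h.

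Among 19 genes of factors known to act at the EDN1 gene, all of them tested, 4 rose and 1 fell after SM30, 1 rose after AS30 at 3 h and 0 were called at 22 h, beside the same 7.49%, 2.52% and 3.58% of all probes. KLF2 rose by 0.84 after AS30 at 3 h (SE 0.17, adjusted p = 0.0437 from limma, higher in 3 of 3 pairs) and by 1.03 after SM30 (SE 0.17). The part of any of these factors in the level of EDN1 was not tested. JUN, a subunit of AP-1, rose by 1.35 after SM30 (SE 0.17), KLF4 by 0.85 (SE 0.16) and NFKB1 by 0.72 (SE 0.18), while GATA2 fell by 0.96 (SE 0.18). The list's median was 0.26 after SM30, -0.0054 after AS30 at 3 h and -0.02 at 22 h.

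Other peptides and receptors that act on vessels were taken as 27 genes, of which 15 were tested. After SM30 2 rose and 1 fell, after AS30 at 3 h 1 rose, and at 22 h 1 rose, again beside 7.49%, 2.52% and 3.58% of all probes. The bradykinin receptor BDKRB1, which is known to be induced in injured tissue, rose by 1.23 after AS30 at 3 h (SE 0.21, adjusted p = 0.0296 from limma) and by 1.69 after SM30 (SE 0.21). BDKRB2, the constitutive bradykinin receptor, rose by 1.36 after SM30 (SE 0.19), and APLN, which encodes the peptide apelin, fell by 1.34 (SE 0.16). NPR1, a natriuretic peptide receptor, rose by 1.81 at 22 h (SE 0.37, adjusted p = 0.0400), with 1 of 3 controls well above background. The list's median was -0.09 after SM30, 0.26 after AS30 at 3 h and 0.04 at 22 h. Of the marker lists, 1 gene was called in any of the 3 comparisons, the keratin KRT19, which rose by 1.21 after AS30 at 22 h (SE 0.20, adjusted p = 0.0234).

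The calls of these genes were recomputed under 13 other settings. After SM30 BDKRB1 and APLN kept their call in 13, JUN in 12, PRKCE and BDKRB2 in 11, KLF2 and KLF4 in 9, and GATA2, ITPR3 and NFKB1 in 8, while RGS16 kept it in 6 of the 12 where it was tested. The log2 differences closest to 0 among these settings were -0.15 for GATA2 and -0.25 for RGS16. After AS30 at 3 h BDKRB1 kept its call in 10, KLF2 in 9 and PRKCE in 8 of 13. At 22 h NPR1 and KRT19 kept theirs in 8 of 13. With slide as a fixed block none of these calls after AS30 at 3 h or 22 h was made, and after SM30 those of APLN, BDKRB1 and PRKCE alone. In that fit the SM30 differences rest on array A, the only treated array on the slide of the SM30 controls. The genes called kept their direction in each setting where they were tested.

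**Figure D5:**
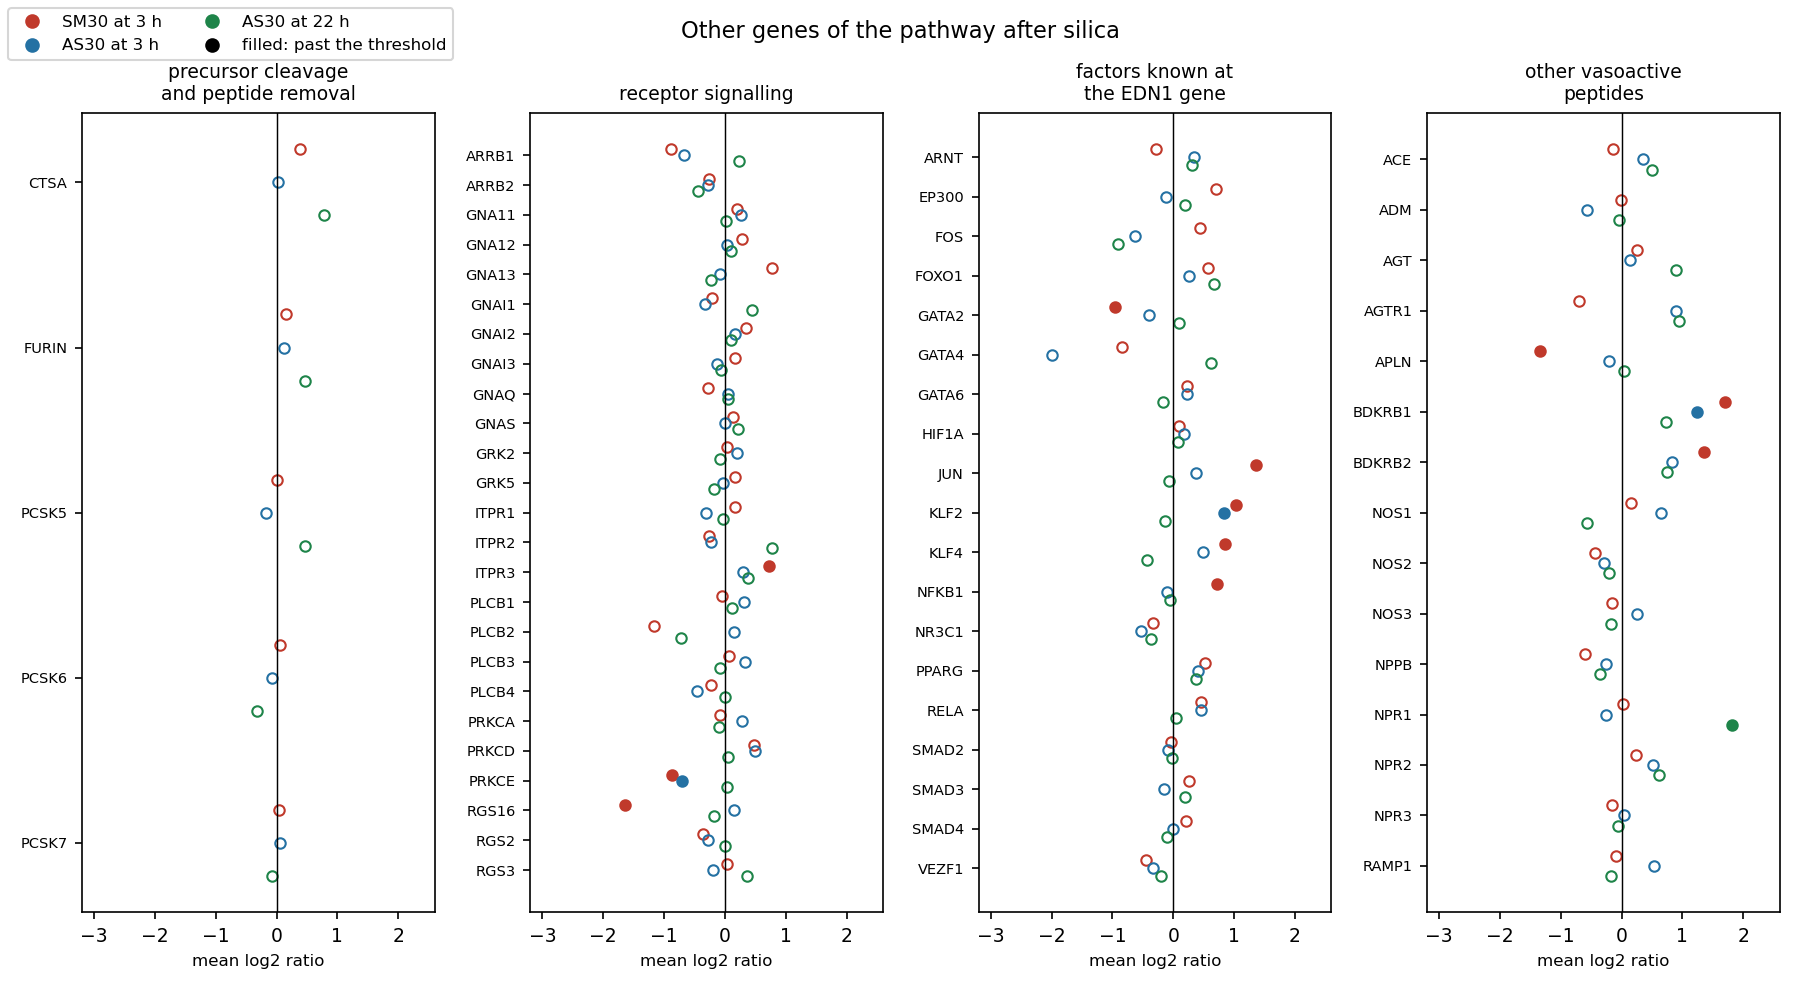
Mean log2 ratio (horizontal axis) of the tested genes of 4 lists after SM30 at 3 h, AS30 at 3 h and AS30 at 22 h, 1 row per gene, with filled symbols where limma's adjusted p is under 0.05. BDKRB1, KLF2 and PRKCE are filled for both NPs at 3 h, and NPR1 is filled at 22 h.

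Over the 18 arrays the log2 levels of EDN1 and EDN2 had a Pearson r of 0.62, those of EDN1 and ECE1 of -0.23 and those of EDN2 and ECE1 of -0.36. The points share slides and the 2 sets of cultures, and these values describe the arrays. Among 16252 RefSeq probes measured on all arrays, the genes whose level was most like that of EDN2 were UBE2T (r = 0.95), TMEM37 (0.94) and ROR1 (0.94). For EDN1 they were GADD45B (0.92), PRPF38A (0.91) and CHML (0.86), and for ECE1 they were FSCN2 (0.89), DIP2A (0.87) and TGFB1 (0.86).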

How the data were processed

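The authors deposited the scanner files of 18 one-colour arrays as written by Agilent Feature Extraction 10.5.1.1, with linear intensity values and flags for each spot. They also deposited a table of intensity values for the same arrays, which had been quantile-normalized and had replicate spots averaged. Its log2 was used as an alternative, and columns of it not used numbered 0.

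Here the processed signal of 43376 non-control spots per array was put on the log2 scale and quantile-normalized over the 18 arrays. A spot without the positive and significant flag counted as missing, an outlier spot was dropped, and replicate spots were averaged. Probes missing on over 33% of arrays were removed, which left 28665 of 41000. Ratios were taken of treated over same-letter control arrays. Limma 3.58.1 in R 4.3.3 modelled the 9 ratios in 3 classes, with Benjamini-Hochberg adjustment over all probes tested and a threshold of 0.05. Control groups were compared through a model of all 18 arrays in 6 groups. Both fits were tested on simulated data. The authors' methods call the replicates biological, and p-values measure the spread between these samples. The number of arrays limits the precision.

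Alternatives were 75th percentile scaling, normexp correction (offset 50), changes to the treatment of dim or outlier spots, the deposited table, fits that drop the pairing or add a fixed or random slide term (statmod 1.5.0), and leaving out each pair or control array. Slide was read from the array identifiers. All member probes are named, from each other list the called genes (at most the 3 largest rises and falls per comparison), and for each measured member the 3 genes most like it. A list gene with several probes is represented by the brightest on average. Symbols came through the RefSeq accession of the probe where it matched, as for 18772 kept probes, and otherwise from the files. Some genes of the lists are not reported here. The members and lists were chosen with earlier results of these data known. Figures were drawn with matplotlib 3.10.9.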

Additional observations from a re-analysis of the deposited data

Results flagged for a closer look

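The ECE1 log2 ratios were above 0 in all 3 SM30 pairs at 3 h and below 0 in all 3 AS30 pairs at 22 h, which is why this result is listed. The mean after AS30 at 22 h lay 0.77 below the mean after SM30 at 3 h (a log2 difference of -0.77). The difference was not tested, and particle, recovery time, set of cultures and slide differ together between these classes. The treated levels were 6.85 ± 0.10 (SD) after SM30 and 6.73 ± 0.10 after AS30 at 22 h, and these arrays overlapped. Their controls lay at 6.50 ± 0.04 and 7.15 ± 0.18, the SM30 controls being the lowest group. The part of the control levels in the opposite signs was not tested. With normexp background correction the means were -0.13 and 0.15.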

How the results depend on the processing

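The call of EDN2 after AS30 at 3 h was made in 9 of 10 other settings that keep every array, and the count of members past the threshold there, 1 as reported, was 2 with normexp correction, with spots not well above background set to missing, without pairing by letter (no replicate block) and with slide as a random block, where EDN1 joined EDN2, 0 with slide as a fixed block, and 0 to 1 when a pair was left out. In these settings, in that order up to slide as a fixed block, 2.18%, 5.03%, 4.59%, 13.6% and 0.43% of all probes were called. For AS30 at 22 h the count, 0 as reported, was 1 (EDN1) with normexp correction, with spots not well above background set to missing, with probes measured on all arrays, without the replicate block and with slide as a random block, and 0 to 1 when a pair was left out. The shares of all probes called in the named settings at 22 h were 4.04%, 4.74%, 4.71%, 4.99% and 6.82%. Between the control sets the count of 1 was 1 to 2 when an array was left out, beside 18.3% to 27% of all probes called. With the replicate block it was 1, beside 27.6%. Between the AS30 controls at 22 h and 3 h the count stayed at 0 with the replicate block, beside 1.23%. Same-letter arrays deviated together weakly (correlations of -0.09 to 0.45, over 0.1 in 3 of 9 pairs), which does not show that the letters pair the arrays. Ratios by letter were kept because the study's methods divide by a corresponding control, and without the replicate block the adjusted p of EDN2 was 0.304 at 22 h and 0.0287 at 3 h.

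The values that changed sign were near 0, apart from EDN2 after AS30 at 22 h, which was 0.034 with slide as a fixed block. They were ECE1 after AS30 at 3 h (-0.048 with 75th percentile scaling, -0.066 to 0.23 with a pair left out), the EDN1 response at 22 h minus 3 h (0.0016 with slide as a random block, -0.15 to 0.11 with a pair left out), the EDN1 response to SM30 minus that to AS30 (-0.0044 with slide as a fixed block), and the AS30 controls at 22 h against 3 h, where ECE1 was -0.10 with 75th percentile scaling, -0.035 with normexp, -0.11 with slide as a fixed block and -0.088 to 0.16 with an array left out, EDN1 was -0.23 to 0.054 with an array left out, and EDN2 was 0.010 with normexp and -0.64 to 0.30 with an array left out. The cause was not tested. Over the settings that keep every array the share of all probes called was 0.43% to 13.6% for AS30 at 3 h, 1.15% to 6.82% at 22 h and 1.17% to 11.7% for SM30, and with a pair left out 0.285% to 10.7%, 0.00716% to 4.29% and 1.01% to 1.98%. Slide as a fixed block could not be fitted between the control sets, which share no slide. Values of EDN3 and the receptors were limited by signal over background.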
